A study of Mus musculus with 12 samples.

Results

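Primed enhancer bins are 2-kb stretches of mouse chromatin that carried the primed enhancer mark in fetal or adult haematopoietic stem cells (HSCs) and no mark of an active or poised enhancer or of an active or bivalent promoter in either. They were chosen from the authors' list of promoter contacts by these 0 or 1 marks, for contacts within a chromosome. Every contact used here was called in at least 1 population, so a bin entered only through a call. Beyond that, neither the population of the call nor the counts entered the choice. All values below hold for called contacts. The rule gave 1732 distinct bins among 67766 (2.56%), and they took part in 2076 of 88475 contacts (2.35%). The contacts reached 1094 captured promoter fragments with 1047 gene names. In 1199 contacts the bin was primed in fetal cells only, in 758 in adult cells only, and in 119 in both.

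A primed enhancer is usually defined by monomethylated histone H3 without the acetylation that marks active enhancers. Such elements are often described as held ready for use at a later step of differentiation, and they can sit next to or far from the genes they may serve. HSCs give rise to all blood lineages. They expand in the fetal liver and lie mostly quiescent in the adult bone marrow, and factors of the RUNX, GATA, ETS and E-protein families bind many of their regulatory elements.

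Contacts were measured by promoter Capture-C, in which DpnII-cut, ligated chromatin is enriched for chosen promoters and sequenced. Fetal HSCs came from liver at embryonic day 14.5 and adult HSCs from bone marrow of mice aged 6 to 8 weeks, both of the B6129SF1 background, untreated and sorted as Lin-Sca1+cKit+CD135- cells. Each population had 4 libraries, 2 in each of 2 batches, and the deposited table pools them into 1 fetal and 1 adult value per contact and batch. The 4 samples of the HPC7 line were not analysed here. With no value per library there is no replicate error and no test. Differences are given as values, with exact Clopper-Pearson 95% intervals for shares and order-statistic 95% intervals for medians. These intervals cover counting error only, and bins that share a promoter or lie side by side are not independent.

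Over all contacts the summed counts were 892529 fetal and 759999 adult in the first batch, then 2014162 and 1813689. The second batch captured other promoters at a stricter minimum (a score of 2 against 1.3), so the batches are described apart. The HSC marker genes that were captured, 9 of 11, had FPKM values (RNA fragments scaled to transcript length and depth) of 9.84 to 36.3 in fetal and 8.94 to 62.5 in adult cells. Flt3, which encodes the CD135 protein that the sort gated out, had 6.20 and 3.81 FPKM. Macrophage markers were sought by 8 names, of which Emr1 and Adgre1 are the same gene, and 6 were captured. These ranged from 1.003 to 9.97 FPKM in fetal and from 0.00996 to 1.14 in adult cells. The 3 captured of 5 erythroid markers ranged from 6.26 to 24.0 and from 0.236 to 5.98. Of 6 lineage markers 2 were captured, at 1.16 and 1.501 FPKM in fetal and 0.412 and 0.0932 in adult cells, and none of 3 hepatocyte markers was captured.

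Promoter sequences are shown for 4 genes on which the results below turn. The bins are placed on mm9 and their own sequences were not used here. Each sequence is the 250 bases before the RefSeq transcript start, 5′ to 3′ on the gene's strand, from RefSeq on GRCm38.p6. Utp4 (listed in the table as Cirh1a) had the most primed contacts of the second batch and Lsg1, with Rpl30, the most of the first, and Prdm16 and Id3 are members of the HSC regulator and lymphoid lists, with 6 and 5 primed contacts. Capitals mark the letters CTTCCG, the reverse complement of the ETS core CGGAAG, which lie at -57 and -20 from the start in Lsg1 and at -43 and -19 in Utp4.
Lsg1 (chr16:30587590-30587839, - strand): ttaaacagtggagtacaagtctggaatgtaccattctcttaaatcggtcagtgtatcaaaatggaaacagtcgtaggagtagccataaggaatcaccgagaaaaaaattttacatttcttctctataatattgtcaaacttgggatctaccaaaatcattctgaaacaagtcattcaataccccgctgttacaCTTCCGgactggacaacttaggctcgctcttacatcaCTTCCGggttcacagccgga
Utp4 (chr8:106893390-106893639, + strand): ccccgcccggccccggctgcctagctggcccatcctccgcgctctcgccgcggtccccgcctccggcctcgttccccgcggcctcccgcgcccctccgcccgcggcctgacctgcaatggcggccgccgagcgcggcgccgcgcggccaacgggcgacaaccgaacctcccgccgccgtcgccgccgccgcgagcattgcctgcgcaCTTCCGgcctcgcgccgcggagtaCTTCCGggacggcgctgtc
Prdm16 (chr4:154636874-154637123, - strand): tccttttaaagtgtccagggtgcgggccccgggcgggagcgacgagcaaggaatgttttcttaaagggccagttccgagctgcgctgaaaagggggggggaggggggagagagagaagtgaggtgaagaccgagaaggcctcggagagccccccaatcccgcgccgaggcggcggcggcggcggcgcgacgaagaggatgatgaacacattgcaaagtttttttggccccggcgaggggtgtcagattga
Id3 (chr4:136143572-136143821, + strand): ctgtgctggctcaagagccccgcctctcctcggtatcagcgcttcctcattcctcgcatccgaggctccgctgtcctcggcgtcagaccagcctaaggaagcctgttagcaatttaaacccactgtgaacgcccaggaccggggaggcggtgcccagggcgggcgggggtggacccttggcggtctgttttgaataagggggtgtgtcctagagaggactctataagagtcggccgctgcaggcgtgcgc

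The letters CGGAAG, sought on both strands, were in 21.4% of 1166 promoter sequences of genes with a primed contact, in 21.8% of 2433 of captured genes without one, and in 13.6% of all 32851 RefSeq promoters. The other short motifs sought gave 5.83% against 6.45% for AGATAA, bound by GATA factors, 10.9% against 11.3% for CAGCTG (an E-box), 14.6% against 13.7% for CAGGTG (an E-box) and 9.61% against 11.6% for TGTGGT, bound by RUNX factors. Over all RefSeq promoters these were 9.99%, 13.0%, 17.2% and 14.05%, in the same order. The first difference, from all promoters, was shared by captured genes with and without a primed contact, and so was the base composition: the median GC content was 60% and 58.8%, against 52.4% over all. A match is a description of letters and not a binding site.

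Most primed bins had no mark of these kinds in the other population. Counting before the rule removed bins with other marks, 1419 contacted bins were primed in fetal cells. Of these, 7.89% (6.54 to 9.42) were also primed in adult cells, 18.8% (16.7 to 20.9) were active enhancers there, and 71.9% (69.5 to 74.2) had no promoter or enhancer mark there. The 981 bins primed in adult cells gave 11.4% (9.49 to 13.6), 20.2% (17.7 to 22.8) and 67.8% (64.8 to 70.7) for the same states in fetal cells. Bins primed in 1 population and active in the other lie just outside the rule. They made 139 first-batch and 118 second-batch contacts where primed in fetal cells, and 131 and 79 where primed in adult cells.

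Open chromatin (ATAC) was found at 65.5% of primed bins in at least 1 population. That lay between bins with no mark (36.9%) and bins that were active enhancers in both populations (93.1%), and the share over all contacted bins was 54.1%. Bins primed in fetal cells only were open in fetal cells in 63.4% (60.3 to 66.4) of 986 cases and in adult cells in 48.8% (45.6 to 51.9). Bins primed in adult cells only were about as often open in either population, 48.7% in fetal and 50.2% in adult cells among 643 bins, with intervals of 44.7 to 52.6 and 46.3 to 54.2. The intervals for fetal and adult opening did not overlap at fetal-primed bins and overlapped at adult-primed bins. By contact, 62.9% of the first-batch and 67.7% of the second-batch primed contacts had an open bin.

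Each contact was called in both populations, in fetal cells only or in adult cells only, by a deposited score that is 0 where there was no call. In the first batch 256 primed contacts were called in both, 430 in fetal cells only and 430 in adult cells only. The share called in both was 22.9% (20.5 to 25.5), against 25.3% of all contacts, while 38.5% each were called in fetal or adult cells only, against 39% and 35.7% of all contacts. In the second batch 329, 339 and 292 contacts gave 34.3% (31.3 to 37.4) in both, 35.3% in fetal and 30.4% in adult cells only, against 36.7%, 34% and 29.3% of all contacts. The shares at primed bins lay near the background in both batches.

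**Figure D1:**
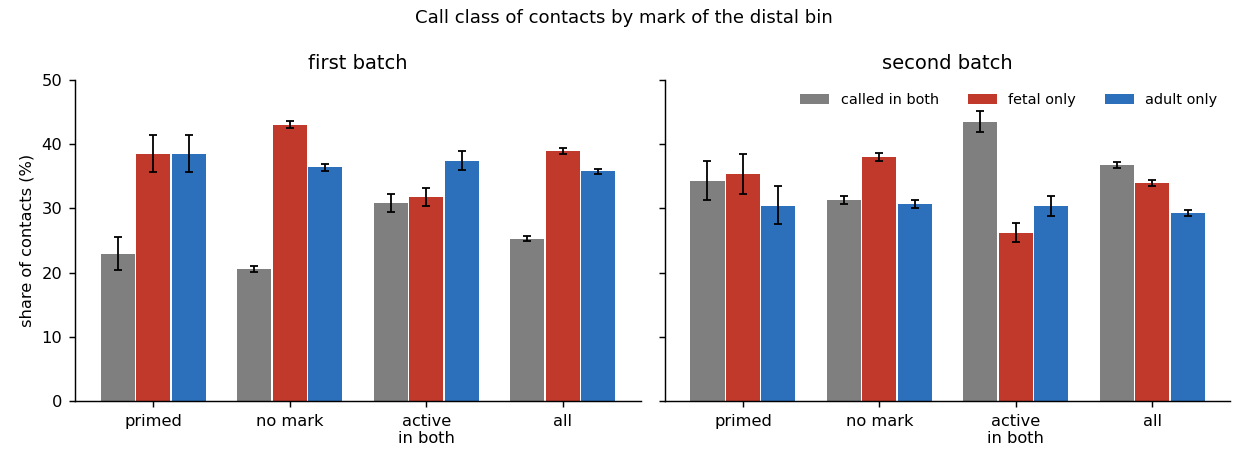
Share of contacts (%) called in both populations (grey), in fetal cells only (red) and in adult cells only (blue), by the mark of the distal bin, in each batch, with exact 95% intervals. Primed bins had 22.9% and 34.3% of their contacts called in both, below bins that were active enhancers in both populations (30.8% and 43.5%).

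The share called in both was lower at primed bins than at active enhancers and close to that of unmarked bins. Bins that were active enhancers in both populations had 30.8% (29.4 to 32.3) and 43.5% (41.8 to 45.2) of their contacts called in both in the respective batches. Bins with no mark had 20.6% (20.1 to 21.0) and 31.3% (30.7 to 31.9). Among open bins, primed ones had 24.1% and 37.7%, and unmarked ones 26.7% and 37.3%. Among bins closed in both populations, primed ones had 21.0% (17.2 to 25.3) against 16.8% (16.3 to 17.3), then 27.1% against 27.4%. With a call of the other population counted as shared when it lay within 5 kb, the shares at primed bins were 59.9% and 69.3%. This tolerance was not applied to the other contacts, so these shares have no background and cannot be set against those above.

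The share called in both populations was larger at bins primed in fetal cells only than at bins primed in adult cells only in the first batch, with 26.1% (22.7 to 29.8) of 617 against 17.8% (14.3 to 21.8) of 426 contacts. In the second batch the values were 35.2% (31.3 to 39.3) of 582 and 32.2% (27.2 to 37.6) of 332, with overlapping intervals. Bins primed in both populations were few, with 73 and 46 contacts, of which 26.03% (16.45 to 37.6) and 36.96% (23.2 to 52.45) were called in both. These intervals hold the 30.8% and 43.5% of bins that were active enhancers in both populations.

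The fetal share of calls was higher at bins primed in fetal cells only than at bins primed in adult cells only, by less than the width of either interval, and in the first batch the direction depended on the score minimum. Among first-batch contacts called in 1 population, 50.7% (46.0 to 55.3) were fetal at bins primed in fetal cells only and 48.6% (43.2 to 53.9) at bins primed in adult cells only, an odds ratio of 1.09. The second batch gave 56.2% (51.1 to 61.3) and 51.6% (44.8 to 58.3), an odds ratio of 1.21. With a p 10 times smaller the first-batch shares were 45.36% and 45.26%. For contacts called in 1 population and scoring at least 1 unit above the minimum, an alternative chosen after seeing the data, they were 47.3% and 48.1%, the other way round. Over all contacts called in 1 population, 52.1% and 53.7% were fetal. The counts behind the first-batch values were 231 fetal-only and 225 adult-only contacts at fetal-primed bins, and 170 and 180 at adult-primed bins.

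Open chromatin within the same bins stood further apart, with overlapping intervals in both batches. Primed bins open in fetal cells only had 59.1% (50.2 to 67.6) fetal contacts among those called in 1 population, and bins open in adult cells only had 46.0% (33.4 to 59.1), an odds ratio of 1.69 in the first batch. The second batch gave 61.8% (50.9 to 71.9) and 37.7% (24.8 to 52.1), an odds ratio of 2.67. Where mark and opening were both fetal-only, 65.9% (55.3 to 75.5) of 91 first-batch and 63.1% (50.2 to 74.7) of 65 second-batch contacts were fetal. Where both were adult-only, the share was 46.3% of 41 and 42.9% of 28, with intervals of 30.7 to 62.6 and 24.5 to 62.8. Where mark and opening differed the numbers were small. Adult-primed bins open in fetal cells only had 44.1% (27.2 to 62.1) fetal contacts of 34 in the first batch, below the 46.3% of those open in adult cells only, and 59.1% (36.4 to 79.3) of 22 in the second. Fetal-primed bins open in adult cells only had 42.9% of 21 and 33.3% of 24. Unmarked bins open in fetal cells only had 54.6% and 59.8% fetal contacts in the respective batches, and those open in adult cells only 52.7% and 53.3%.

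**Figure D2:**
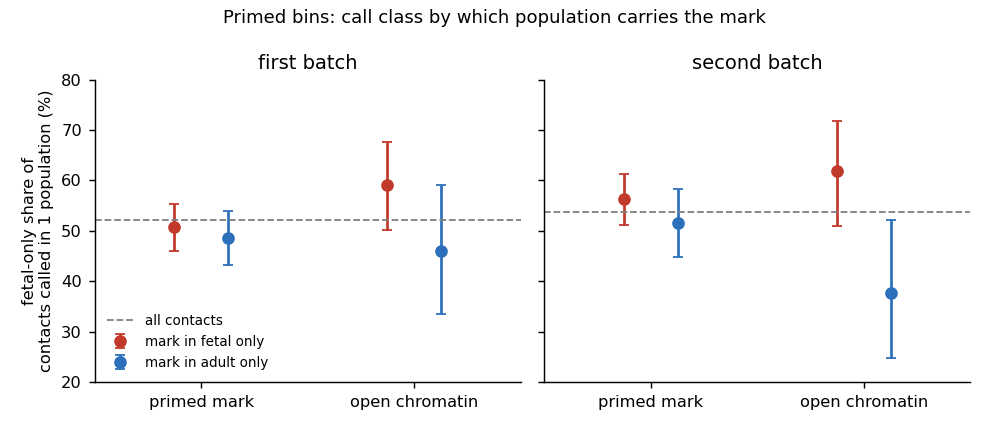
Fetal-only share (%) of primed contacts called in 1 population, by whether the primed mark (left) or open chromatin (right) was found in fetal cells only (red) or adult cells only (blue), with exact 95% intervals, and all contacts as a dashed line. The red and blue points stand closer for the primed mark (50.7% and 48.6%, first batch) than for open chromatin (59.1% and 46.0%).

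Bins left out of the rule because they were active in the other population did not show a common direction. Bins primed in fetal and active in adult cells had 33.3% (24.2 to 43.5) fetal contacts of 99 called in 1 population in the first batch and 54.2% (42.0 to 66.0) of 72 in the second. Bins primed in adult and active in fetal cells had 51.0% (40.7 to 61.3) of 98 and 45.7% (30.9 to 61.0) of 46.

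Primed bins lay at a median of 176 kb (164 to 185) from their promoter in the first batch and 87.1 kb (83.5 to 91.4) in the second. The medians over all contacts were 172 and 92.1 kb, and active enhancers lay at 158 and 87.6 kb. The middle 50% of primed contacts spanned 109 to 289 kb and 60.1 to 141 kb. Beyond 1 Mb there were 11 primed contacts in the first batch and 0 in the second.

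At the median, fetal calls at primed bins reached further than adult calls. Fetal calls had a median of 181 kb (170 to 192) and adult calls of 154 kb (144 to 164) in the first batch, 27.4 kb apart. The second batch gave 96.0 kb (89.9 to 105) and 74.0 kb (70.9 to 79.0), 21.97 kb apart. The same differences over all contacts were 24.3 and 24.1 kb. In the upper tail of the first batch the order turned. At the 99th percentile fetal calls at primed bins lay at 725 kb and adult calls at 1004 kb, beside 950 and 1044.5 kb over all contacts. From 500 kb on, 22 first-batch primed contacts were fetal-only and 24 adult-only, a fetal share of 47.8% against 54.7% over all contacts. Contacts called in fetal cells only had medians of 205 and 117 kb, those called in adult cells only 163 and 63.8 kb, and those called in both 139 and 81.4 kb. Between 20 and 60 kb in the second batch, 33 primed contacts were fetal-only and 134 adult-only, while from 60 to 150 kb the numbers were 192 and 110 and from 150 to 500 kb they were 111 and 46. The fetal share in these 3 distance classes, 19.8%, 63.6% and 70.7%, stood beside 15.6%, 64.4% and 70.5% over all contacts. Adult-primed bins were further away than fetal-primed ones in the first batch, with medians of 192 kb (176 to 208) and 166 kb (157 to 180), and the second batch gave 88.2 and 86.1 kb.

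**Figure D3:**
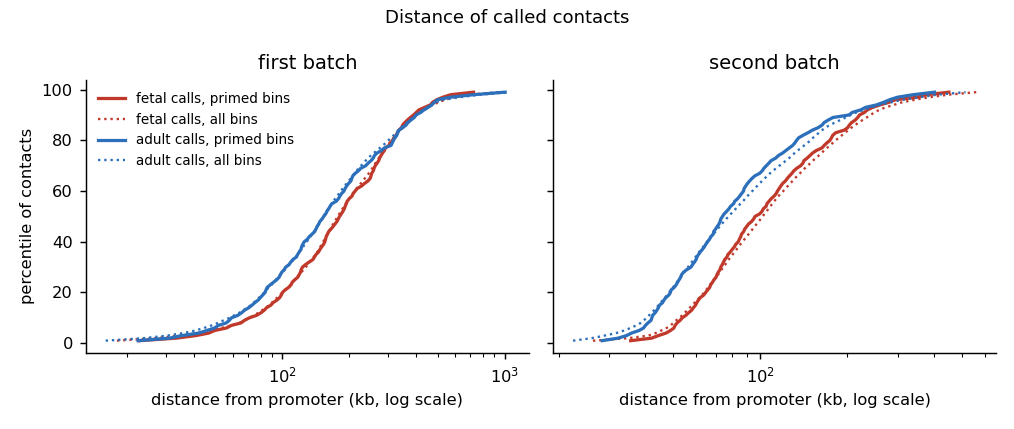
Cumulative distance of called contacts: the x axis is the distance from the promoter (kb, log scale) and the y axis the percentile of contacts, for fetal (red) and adult (blue) calls at primed bins (solid) and all bins (dotted). The solid lines follow the dotted ones, and at the middle percentiles fetal calls lie to the right of adult calls, with primed medians of 181 and 154 kb in the first batch, then 96.0 and 74.0 kb.

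Counts per primed contact were near those of all contacts. The median was 9 in either population in the first batch, and 26 fetal and 23 adult in the second. The median log2 ratio of fetal to adult counts, after adding 1, was 0.09 (0.00 to 0.19) and 0.23 (0.18 to 0.29), and over all contacts it was 0.14 and 0.23. Scaled to each population's batch total, the primed medians were -0.14 and 0.08 and those of all contacts -0.09 and 0.08, so the first-batch direction turned with the scaling for both. The fetal count was at least 2 times the adult one in 234 first-batch contacts (21.0%, against 20.9% of all), and the adult count at least 2 times the fetal one in 181 (16.2%, against 14.4%). The second batch gave 130 (13.5%, against 14%) and 46 (4.79%, against 4.33%).

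A single contact held most of the fetal counts at primed bins in the first batch. It joined Clec10a, a C-type lectin of macrophages and dendritic cells, to the bin chr11:69948001-69950001, 34.0 kb away, closed in both populations and primed in fetal cells only. It had 24385 fetal and 10807 adult counts and infinite scores in both. The primed counts summed to 37750 fetal and 23244 adult in that batch, a ratio of 1.62. Without the contact the ratio was 1.07. The second batch summed to 27832 and 24445, a ratio of 1.14.

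The promoters with the most primed contacts in the first batch were Lsg1 and Rpl30, with 8 each. Lsg1 encodes a GTPase of large ribosomal subunit maturation, and its bins lay 240 to 490 kb away, within 106 contacts of this fragment. Its counts summed to 103 fetal and 75 adult, with 3 contacts called in both, 3 in fetal cells only and 2 in adult cells only. The strongest bin, 360 kb away and primed in both populations, had 22 fetal and 12 adult counts. Rpl30, a ribosomal protein gene, had 45 and 49 counts, and 6 of its 8 bins were primed in adult cells only. Pum3 (listed as D19Bwg1357e), Runx1 and Tspan18 had 7 each. At Tspan18, a tetraspanin gene, 5 of the 7 were called in both populations, at bins 102 to 214 kb away with 117 and 95 counts in sum.

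In the second batch Utp4 (Cirh1a), which encodes a ribosomal RNA processing factor, led with 9 primed contacts of 54. A run of 7 bins lay between 164 and 178 kb from it, with fetal counts of 16 to 36 and adult counts of 20 to 32, and 4 of these were called in both populations. The other two lay apart, at 70.5 kb with 23 fetal and 7 adult counts and at 148 kb on the opposite side with 20 and 6. Ptprj, a receptor tyrosine phosphatase gene, had 8 contacts at 29.8 to 95.8 kb, 5 of them called in both, with 302 and 284 counts. Its largest counts, 52 fetal and 59 adult, were at the nearest bin.

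Med27, a Mediator subunit gene, had 7 primed contacts, of which 6 were called in fetal cells only and 1 in adult cells only. The fetal counts of the 6 were 27, 31, 25, 27, 18 and 33, and the adult counts at the same bins 18, 18, 18, 17, 16 and 11. The adult contact, at the farthest bin, 333 kb away, had 11 fetal and 23 adult counts. The bins nearest to Med27 were primed in adult cells only and were called in fetal cells only. Mrps12, a mitochondrial ribosomal protein gene, contacted 7 bins that were all primed in fetal cells only, with 210 and 188 counts in sum. Pfkl, which encodes the liver-type phosphofructokinase of glycolysis, had 6 contacts, 3 called in both and 3 in fetal cells only, with 350 and 222 counts.

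**Figure D4:**
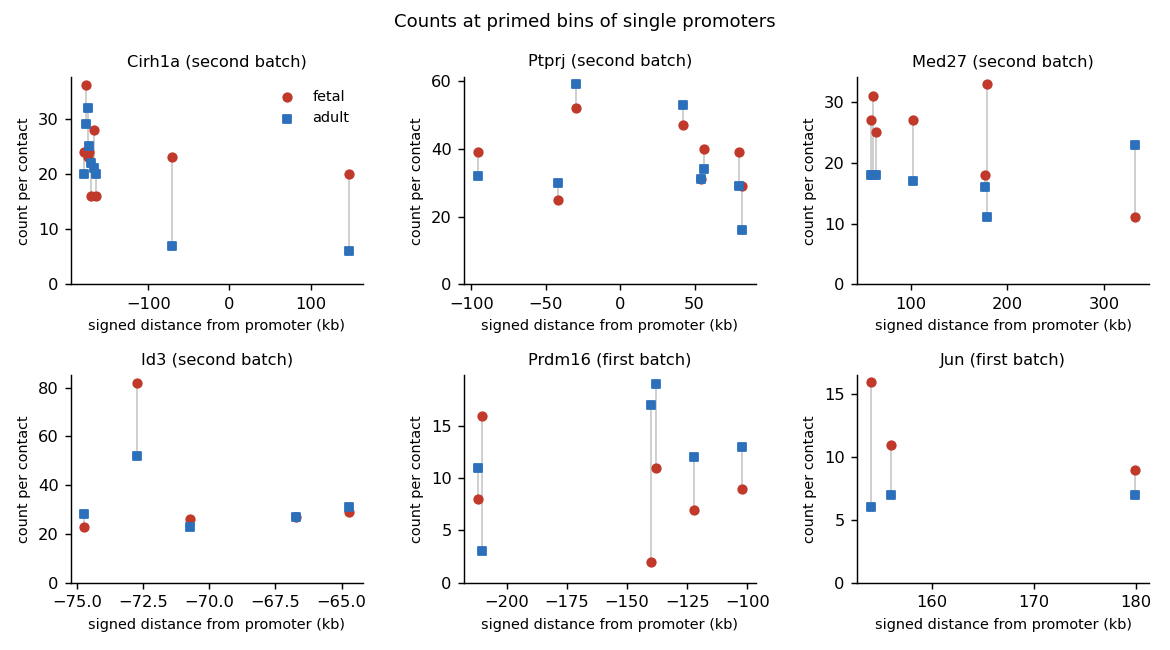
Fetal (red circles) and adult (blue squares) counts at each primed bin of 6 promoters (y axis), against the signed distance from the promoter in kb along the chromosome (x axis), with a grey line joining the pair. At Med27 the fetal count is the higher in 6 of 7 bins, and at Prdm16 the adult count is the higher in 5 of 6.

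Single contacts were ranked by the lower of both scores, which selects contacts called in both populations. Below the infinite scores of Clec10a, the first-batch list was led by Sfi1 (a centrosome protein gene), with 316 fetal and 169 adult counts at one bin and 353 and 160 at the next. Fadd, an adaptor of death receptors, followed with 41 and 53 counts at 195 kb. Sfi1 and Pisd-ps2 have near-identical copies elsewhere, and how the counting treated these is not given in the sources used here. In the second batch the strongest included 1110008P14Rik with 116 and 81 counts at 459 kb and Fabp5 (a fatty acid binding protein) with 99 and 74 at 293 kb. The largest count ratios among contacts called in 1 population with at least 20 counts in sum were at low counts on the other side. Paqr7, Plxnc1 and Rcc1 had 17, 22 and 18 fetal against 4, 6 and 5 adult counts. Mbd3, Mycn and Dicer1 had 4, 5 and 5 fetal against 17, 19 and 17 adult counts. In the second batch C1qbp had 22 fetal and 2 adult counts, and Gulp1 had 3 and 29.

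Primed bins touched several genes about as often as unmarked bins. Among the 1732 bins, 244 (14.1%, 12.5 to 15.8) met at least 2 gene names, against 13.9% of unmarked bins and 22.9% of bins active in both populations. One bin met 6 genes, chr6:51160001-51162001, primed in adult cells only and open in both populations. Its contacts were Cbx3 at 259 kb, Snx10 at 313 and 333 kb from separate fragments, and Hoxa3, Hoxa7, Hoxa9 and Hoxa10 at 1002 to 1024 kb. Hoxa genes are homeobox regulators of blood progenitors. Hoxa10, Hoxa3 and Hoxa7 were called in adult cells only, with 3, 8 and 6 fetal against 10, 11 and 12 adult counts, and Hoxa9 in fetal cells only, with 11 and 8. The fragments of a gene cluster share much of their surroundings, so these are not separate observations. The bin chr11:100820001-100822001, primed in fetal cells only, met Stat5a at 100 kb with 12 and 7 counts and Stat5b at 109 kb with 13 and 14, beside Dhx58, Dnajc7 and Rab5c.

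A directly neighbouring bin was called for the same promoter in 57.2% (54.2 to 60.1) and 68.1% (65.1 to 71.1) of primed contacts, against 49.6% and 65.6% of contacts at unmarked bins and 60.1% and 73.8% at bins active in both populations. The neighbour was an active enhancer in 10.8% of primed contacts in both batches, against 5.33% and 7.59% at unmarked bins. It was another primed bin in 38.3% and 48.6%, against 0.951% and 1.39% at unmarked bins and 1.16% and 1.23% at bins active in both populations. Among the latter the neighbour was an active enhancer in 51.7% and 66.4%.

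Promoters with a primed contact were 592 of 1939 promoters (30.5%) in the first batch and 506 of 1814 (27.9%) in the second. Their median number of listed contacts was 39 and 34, against 12 and 10 for the other promoters, a direction that the split itself favours, since each further contact can be a primed one. Primed contacts were a median of 4.65% and 5.26% of their own. Expression differed little by this split. The first batch had median FPKM values of 8.71 fetal and 10.4 adult with a primed contact and 8.31 and 9.91 without. The share the authors marked as differentially expressed was 36.5% with and 35.3% without, against 35.6% over all first-batch promoters. Every second-batch promoter carried that mark, with median values of 3.18 and 3.81 FPKM with a primed contact and 2.68 and 3.39 without.

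Among differentially expressed promoters, a larger share was higher in fetal cells where the bins met were primed in fetal cells only than where they were primed in adult cells only. In the first batch the shares higher in fetal cells were 46.7% (37.0 to 56.6) of 107 and 27.6% (16.7 to 40.9) of 58 promoters, against 44.3% over all marked promoters. In the second they were 51.8% (45.7 to 57.9) of 274 and 40.7% (32.6 to 49.2) of 145, against 45.9% over all. The intervals overlap in both batches. The median log2 ratio of fetal to adult FPKM, after adding 1, was -0.62 (-0.78 to 0.52) and -1.03 (-1.23 to -0.79) for first-batch promoters. Second-batch promoters had 0.48 (-0.56 to 0.57) and -0.68 (-0.72 to -0.38). Over all marked promoters it was -0.69 and -0.54, and the intervals at fetal-primed bins span 0. The same split by active enhancers gave 51.1% and 43.1%, then 51.2% and 40.1%, and by unmarked open bins 44.9% and 36.6%, then 49.1% and 44.3%. Promoters that met primed bins of both kinds stand outside the split. Of these, 57.5% (40.9 to 73.0) of 40 first-batch promoters were higher in fetal cells, above the 46.7% with fetal-primed bins alone. In the second batch it was 47.2% (35.3 to 59.35) of 72, between the 51.8% and 40.7%.

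Promoters often met primed and active bins together. Leaving out those with a contact to an enhancer active in 1 population only, the shares higher in fetal cells were 27.3% (10.7 to 50.2) of 22 and 6.25% (0.158 to 30.2) of 16 in the first batch, and 50% (37.0 to 63.0) of 62 and 31.7% (18.1 to 48.1) of 41 in the second. Both first-batch shares lay below the 44.3% of all marked promoters before this exclusion. The share of all marked promoters after it was not computed, so these values have no matching background. The table gives 1 FPKM value per population, in which fewer cells of a type and less RNA per cell cannot be told apart. The 6 captured macrophage markers were all higher in fetal cells, summing to 32.9 FPKM against 2.34 in adult cells, where Marco, Emr1 and Csf1r were at 0.00996, 0.0220 and 0.0390. Their part in these shares was not tested.

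**Figure D5:**
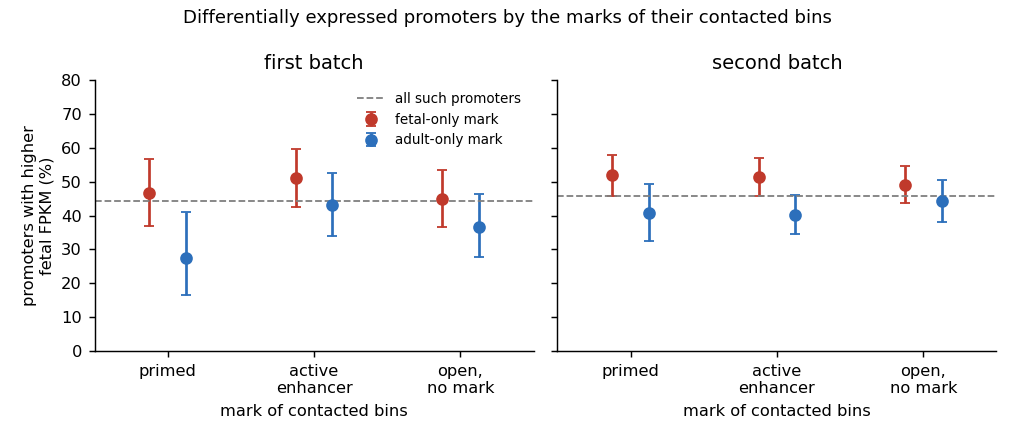
Share of differentially expressed promoters with higher FPKM in fetal cells (y axis, %), by the mark of the bins they met, where that mark was found in fetal cells only (red) or adult cells only (blue), with exact 95% intervals, and all such promoters as a dashed line. The red point stands above the blue one for primed bins in both batches (46.7% and 27.6%, then 51.8% and 40.7%), and the intervals overlap. Promoters that met bins of both kinds are not shown.

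Promoters of HSC regulators met primed bins in 38 of 790 contacts, or 4.81% (3.43 to 6.54), against 2.35% of all contacts. These contacts lay at 14 of 37 captured promoters of the list (37.8%), against 1098 of 3753 captured promoters (29.3%) over all, counted in each batch. Called in both populations were 8, in fetal cells only 9 and in adult cells only 21, so that 30% (14.7 to 49.4) of 30 were fetal, while over all contacts of these promoters 49.1% of 554 were. All 38 were first-batch contacts, and some shared a bin or lay in neighbouring bins, so the interval is too narrow. Without Runx1 and Prdm16, which held 7 and 6 of the 38, the numbers were 5 fetal-only and 12 adult-only.

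Prdm16, a transcription factor needed to maintain HSCs, had 6 primed contacts, 1 in fetal and 5 in adult cells only. In the bins 140 and 138 kb away, both primed in fetal cells only, the counts were 2 and 11 fetal against 17 and 19 adult. In the bin at 210 kb, primed in adult cells only, they were 16 fetal and 3 adult, and its neighbour at 212 kb had 8 and 11. The call thus went against the primed mark at 5 of the 6 bins. Its FPKM was 3.57 fetal and 6.69 adult. Runx1, which is required for the emergence of HSCs, had 7 primed contacts at 119 to 629 kb with none called in both, 3 in fetal and 4 in adult cells only. Its counts were 3 to 12 fetal and 6 to 14 adult per contact, and the calls differed between neighbouring bins: at 323 kb the counts were 11 and 6, at 325 kb 8 and 10. Cbfa2t3, a corepressor in HSCs, had 6 contacts from a pair of promoters, 5 of them called in both. Its bins at 130 and 132 kb from the second promoter had 40 and 55 fetal and 30 and 24 adult counts. The first promoter met the same bins, at 151 and 153 kb, with 23 and 27 fetal and 27 and 27 adult counts. Meis1 and Mecom, both HSC transcription factors, had 2 and 4 contacts. Of these, 5 of 6 were called in adult cells only at 2 to 5 fetal and 8 to 12 adult counts. The remaining contact, of Mecom, was called in fetal cells only with 7 and 0 counts. Its bin, chr3:30320001-30322001, was also met from the other Mecom promoter. There it was called in adult cells only, with 2 and 8 counts, so the call at this bin differed with the fragment.

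Id3, an inhibitor of E-proteins, met 5 bins 64.7 to 74.7 kb away, all primed in fetal cells only. Its strongest bin, at 72.7 kb and open in both populations, had 82 fetal and 52 adult counts, and the other 4 had 23 to 29 fetal and 23 to 31 adult counts. The 4 bins called in both and the 1 called in adult cells only stood beside an FPKM of 3.73 fetal and 0.131 adult. The lymphoid list had 10 primed contacts of 242 (4.13%, 1.999 to 7.47). With Id3, 0 of its 6 primed contacts called in 1 population were fetal (upper limit 45.9%), against 46.5% of 185 over all contacts of these promoters. The 5 outside Id3 were called in adult cells only: Gata3, Ikzf1, Notch1 and both Tcf3 promoters. Their counts were 2 to 13 fetal and 8 to 23 adult.

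Fetal HSC genes had 10 primed contacts of 376 (2.66%, 1.28 to 4.84). Of these, 9 were at bins primed in fetal cells only, as were 57.8% of all primed contacts. The fetal growth genes H19 and Igf2 held 7, with 4 called in fetal and 3 in adult cells only, beside FPKM values of 168 and 209 at the H19 promoters in fetal cells and 1.63 and 2.15 in adult cells. Some of these 7 shared a bin, as at chr7:149736001-149738001, which was met from both genes. Sox17, a fetal HSC transcription factor, had 2 called in both, with 10 and 11 fetal and 10 and 8 adult counts. Its FPKM was near 0 in either population, at 0.0202 fetal and 0 adult. Among quiescence and adult HSC genes, Jun, a subunit of AP-1, met 3 bins, all primed and called in fetal cells only, with 16, 11 and 9 fetal and 6, 7 and 7 adult counts, while its FPKM was 2.18 fetal and 109 adult. Txnip, an inhibitor of thioredoxin, met 2, both called in fetal cells only with 12 fetal counts each and 7 and 6 adult counts, at 36.7 and 88.7 FPKM. In this list 6 of 9 primed contacts called in 1 population were fetal, or 66.7% (29.9 to 92.5), an interval that holds the 51.8% over all 197 such contacts of these promoters.

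Erythroid, megakaryocyte and myeloid genes met primed bins at shares nearer to that of all contacts (2.35%) than the lymphoid list did (4.13%). The erythroid and megakaryocyte list had 8 primed contacts of 277 (2.89%, 1.25 to 5.61), of which 4 were called in both, 1 in fetal and 3 in adult cells only. Cd9, a tetraspanin of megakaryocytes, met 2 bins with 86 and 40 fetal and 51 and 35 adult counts. Klf1, an erythroid transcription factor, met 1 with 27 and 31 counts at an FPKM of 24.0 fetal and 2.40 adult. The myeloid list had 8 of 323 (2.48%, 1.07 to 4.82), 3 of them called in both. Cebpb, a myeloid transcription factor, met 2 bins at 202 and 204 kb, primed in fetal cells only, with 81 and 73 fetal and 65 and 91 adult counts.

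Few fragments could be compared between batches. Of 19 fragments captured in both, 7 had a primed contact, 19 contacts in all. Listed in both batches were 5 (26.3%), of which 2 had the same call class, and over all 599 contacts of these fragments 179 (29.9%) were listed in both, 98 with the same class.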

How the data were processed

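Promoter Capture-C libraries of fetal and adult HSCs were analysed from 1 deposited table of contacts. Per the submitters' processing notes, Trim Galore 0.41, Bowtie2 2.2.2 and mm9 were used. Their roles, the strand setting and the treatment of duplicates are not given in the sources used here. Each contact has 1 deposited count for fetal and 1 for adult cells, a whole number pooled over the libraries of a batch, and whether it is a sum or a mean is not stated. Its deposited scores look like −log10 p-values, with minimum values of 1.3 and 2 in the respective batches, and 0 of the value columns stayed unassigned. FPKM per promoter, the mark of differential expression and the 0 or 1 marks of bins were also deposited by the authors, and how they were made is not stated.

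Bins, contacts and promoter fragments were counted with pandas 2.3.3 and scipy 1.17.1 in Python 3.11.15, tested on simulated data. Distance runs between the midpoints of fragment and bin. Log2 ratios use a pseudocount of 1, so the ratios of low values are drawn towards 0. No test was run, since none can be made without values per library. Of 1047 target names, 1044 matched RefSeq (GRCm38.p6), 91 through a synonym. A suffix such as _1 that numbers a promoter is left out in the text, as is the fragment's strand. Named promoters were, per batch, the 5 with the most primed contacts and, among those with at least 8, up to 3 with the largest excess of calls in each direction. Named contacts were the 5 with the highest finite lower score per batch, the 3 with the largest count ratio per direction among those with at least 20 counts, and those of the gene lists. Not all are described. The members and lists were chosen with earlier results of these data known. Alternatives included a p 10 times smaller, bins primed in both populations, open bins, merged neighbours, a call within 5 kb, scaling to the batch total and other pseudocounts. Others kept contacts over 20 kb, up to 1 Mb or below 1000 counts, distinct bins, or 1 promoter per gene. Bins that hold a captured promoter, and the 3 promoters with the most primed contacts, were also left out in turn.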

Additional observations from a re-analysis of the deposited data

Results flagged for a closer look

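Primed bins also appear in contacts between chromosomes, which the comparisons above leave out. There were 16 such contacts, from 12 promoters, among 1070 contacts between chromosomes, a share of 1.495% beside 2.35% of contacts within a chromosome. Called in both populations were 11, with 2 in fetal and 3 in adult cells only. The largest joined Armcx3 on chromosome X to a bin of chromosome 7 with 9263 fetal and 5544 adult counts, and the medians were 40 and 28 counts. Armcx6, also on chromosome X, met the same bin with 13 and 14 counts. Pisd-ps2 on chromosome 17 met the same chromosome 11 bins as Sfi1 above, with 308 and 291 and with 225 and 234 counts. Whether sequence copies account for such contacts was not tested.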

How the results depend on the processing

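Of 135 recomputed values, 116 stayed inside the reported value's 95% interval or, for counts, near the reported count, and 19 did not. Some could not move. The second batch had 0 primed contacts below 20 kb, 0 beyond 1 Mb and 0 with at least 1000 counts, so leaving such contacts out changed nothing there. In the first batch these settings concerned 8, 11 and 1 of 1116 contacts. The number that stayed is therefore not a measure of stability. With a p 10 times smaller, the fetal share of first-batch contacts called in 1 population was 45.5%, that at bins primed in fetal cells only 45.4% (45.3% at bins primed in adult cells only), and the median distance 157 kb. At bins primed in both populations, 26.03% of first-batch contacts were called in both, the fetal shares were 53.7% and 37.9%, the median distances 161 and 101.2 kb, the second-batch log2 count ratio 0.068 and the second-batch open share 71.7%. In the second batch, the share called in both was 37.7% at open bins and 30.4% with neighbouring bins merged. A call within 5 kb counted as shared gave 59.9% and 69.3% at primed bins, with no such share computed over all contacts. Scaling to the batch total gave log2 count ratios of -0.14 and 0.083. With a pseudocount of 0.1, the second-batch median log2 FPKM ratios were 0.61 for bins primed in fetal cells only and -0.87 for those primed in adult cells only. Without Runx1 and Prdm16, an alternative chosen after seeing the data, the HSC regulators had 12 contacts called in adult cells only. The causes were not tested. No paired analysis was possible because the table pools the libraries of each population, and leaving out single libraries was not run for the same reason. First-batch counts have a median of 9 per contact, so a call in 1 population there often rests on a few counts.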

Other observations

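Within a promoter, primed contacts stood close to the other contacts of the same fragment. The median distance of the primed contacts was greater than that of the others at 291 and smaller at 299 of 591 first-batch promoters, with a median difference of -2 kb, and greater at 218 and smaller at 287 of 505 second-batch promoters, with a median difference of -7.06 kb. The side of the gene was counted for a part of the contacts, 874 of 1116 primed ones in the first batch and 785 of 960 in the second. Upstream of the gene lay 51.9% and 50.2% of these, against 50.4% of 39449 and 47.7% of 32292 over all contacts so counted. Primed contacts were 2 of 910 (0.220%) on chromosome X, 0.972% on chromosome 14 and 3.26% on chromosome 12, against 2.35% over all chromosomes.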
